A study of Homo sapiens with 2 samples.

Results

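The LDB1 peaks described here are those that lay away from promoters and held the DNA letters of a RUNX binding site at their centre, without the letters of a GATA, AP-1 or ETS site. They were chosen from the authors' LDB1 peak list by position and by reference sequence, with no measured level. A peak was kept when its midpoint lay more than 1000 bp from every annotated transcription start site (TSS). The 200 bp around the midpoint had to hold the RUNX core, TGTGGT or TGCGGT, on either strand. The GATA letters (AGATAA or AGATAG or TGATAA or TGATAG), the AP-1 letters (TGACTCA or TGAGTCA) and the ETS letters (AGGAAGT or CGGAAGT) had to be absent from the same window. This rule found 810 of 11046 peaks (7.33%, interval 6.86 to 7.83%), called RUNX-alone peaks below. The name refers to these 4 motifs alone, since other motifs, such as E-boxes, stood in many of the windows.

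CUT&Tag was performed on NB4, an established human acute promyelocytic leukemia cell line that carries the PML-RARA fusion. The method brings a transposase to a protein through an antibody, so that DNA around the protein is cut and joined to sequencing adapters. There were 2 libraries, 1 with an LDB1 antibody from cells labelled as LDB1 overexpression and 1 with IgG from cells labelled as untreated. Antibody and treatment therefore cannot be told apart. There were no replicates, the peaks carry no height, and the read depth is unknown. No test between groups was made. Each interval below is a 95% interval of counting error over peaks, windows, cores or genes of this single library. These are not replicates of a condition. Cores in the same window can belong to the same repeat and are not independent, so intervals over cores may be too narrow.

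LDB1 has no DNA-binding domain. It is bridged by LMO2 to TAL1 and its E-protein partners, which bind E-boxes, and to GATA factors. RUNX1 binds DNA with its partner CBFB, prefers a core followed by a pyrimidine base (C or T), and is needed for blood stem cells to form in the embryo. RUNX1, TAL1, LMO2 and GATA factors are known to meet at many enhancers of blood cells. A RUNX core at an LDB1 peak whose central 200 bp lack GATA letters is a place where that meeting can be examined by sequence. The rule did not search the rest of a peak for GATA letters.

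To show what such a peak looks like, the central 200 bp of 6 RUNX-alone peaks at genes of blood regulators or candidate LDB1 targets are given first, because these are the genes a reader would look up. All sequences are the plus strand of hg38, written 5′ to 3′, and capitals mark the RUNX core, which reads TGTGGT or TGCGGT on the plus strand and ACCACA or ACCGCA on the minus strand.
RUNX1 intron 2, chr21:35026904-35027103: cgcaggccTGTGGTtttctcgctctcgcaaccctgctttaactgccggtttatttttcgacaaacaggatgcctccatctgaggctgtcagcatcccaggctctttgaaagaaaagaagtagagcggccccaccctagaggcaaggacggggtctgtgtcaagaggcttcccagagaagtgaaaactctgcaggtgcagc
CSF1R intron 10, chr5:150065366-150065565: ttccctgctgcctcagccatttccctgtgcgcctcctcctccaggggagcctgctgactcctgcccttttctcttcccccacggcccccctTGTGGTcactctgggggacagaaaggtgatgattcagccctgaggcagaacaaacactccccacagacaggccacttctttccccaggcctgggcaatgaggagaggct
GATA1 intron 3, chrX:48792182-48792381: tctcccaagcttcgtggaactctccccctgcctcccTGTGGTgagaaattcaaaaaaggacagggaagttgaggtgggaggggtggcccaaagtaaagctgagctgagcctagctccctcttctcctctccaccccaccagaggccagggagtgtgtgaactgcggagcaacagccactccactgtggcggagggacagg
ETV6 intron 2, chr12:11799080-11799279: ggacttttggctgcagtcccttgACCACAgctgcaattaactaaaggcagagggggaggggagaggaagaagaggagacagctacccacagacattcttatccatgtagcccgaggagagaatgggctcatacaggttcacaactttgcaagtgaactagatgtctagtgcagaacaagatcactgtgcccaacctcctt
IRF1 gene span, chr5:132500938-132501137: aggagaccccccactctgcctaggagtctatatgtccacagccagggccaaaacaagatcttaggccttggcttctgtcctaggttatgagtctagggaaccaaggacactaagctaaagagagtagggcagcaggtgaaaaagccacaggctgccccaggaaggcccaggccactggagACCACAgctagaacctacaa
HSH2D gene span, chr19:16141120-16141319: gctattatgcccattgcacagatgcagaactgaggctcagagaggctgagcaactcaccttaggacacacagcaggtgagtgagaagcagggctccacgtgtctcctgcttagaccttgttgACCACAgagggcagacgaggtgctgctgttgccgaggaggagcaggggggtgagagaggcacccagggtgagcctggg

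The next 3 windows show the sequence behind the extremes of the set. The first 2 belong to long peaks whose central 31 bases occur once in hg38, and the last was chosen after its letters were seen, as an example of repeated sequence.
PITX1-AS1 intron 2, chr5:135135050-135135249: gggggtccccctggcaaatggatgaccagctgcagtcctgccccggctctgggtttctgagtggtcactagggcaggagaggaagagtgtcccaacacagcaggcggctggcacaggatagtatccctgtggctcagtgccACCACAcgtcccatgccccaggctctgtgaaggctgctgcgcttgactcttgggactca
DNAJB6 intron 8, chr7:157402653-157402852: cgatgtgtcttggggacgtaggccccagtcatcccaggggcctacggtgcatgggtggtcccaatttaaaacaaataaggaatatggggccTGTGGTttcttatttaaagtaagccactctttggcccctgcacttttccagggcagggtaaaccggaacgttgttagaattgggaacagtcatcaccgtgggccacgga
DIRC3-AS1 intron 3, chr2:217068948-217069147: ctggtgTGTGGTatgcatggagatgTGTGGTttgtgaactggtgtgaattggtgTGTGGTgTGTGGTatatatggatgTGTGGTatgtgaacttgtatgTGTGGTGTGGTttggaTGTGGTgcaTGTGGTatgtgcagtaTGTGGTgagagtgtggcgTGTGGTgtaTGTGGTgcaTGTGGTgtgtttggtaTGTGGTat

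The windows differ in what surrounds the core. The cores at RUNX1 and DNAJB6 were followed by TT, and the core at CSF1R by C, which are the pyrimidines that RUNX1 prefers. The core at GATA1 was followed by G. In the ETV6 window the RUNX core and an E-box, CAGCTG, shared letters. The 15 bases around the core had 6 copies in hg38 for CSF1R, 14 for ETV6, 24 for GATA1 and 117 for RUNX1, the last above the limit of 100 copies used below. They had 3 copies for PITX1-AS1 and 26 for DNAJB6. PITX1-AS1 and DNAJB6 are 2 of the 4 longest peaks with a unique centre, and in the other 2, whose sequences are not shown, those bases had 9181 and 54 copies. The DIRC3-AS1 window is a tandem repeat that held 14 cores.

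Of the 11046 peaks, 8906 (80.6%) were distal by the 1000 bp rule, and 1839 of these (20.6%, 19.8 to 21.5%) held a RUNX core. GATA letters stood in 900 of the 1839 (48.9%, 46.7 to 51.2%). Among distal peaks without a RUNX core, GATA letters stood in 49.5% (48.3 to 50.6%), and the intervals overlap. AP-1 letters stood in 9.73% of distal RUNX peaks and 9.93% of the others, and ETS letters in 5.38% and 6.24%. Removing these left the 810 peaks, which were 44.05% (41.8 to 46.3%) of the distal RUNX peaks. Near a TSS, 219 of 2140 peaks had the same motif calls and were left out by distance alone. The peaks just inside the distance limit lay 1011, 1014 and 1023 bp from a TSS, in NR6A1, NOS3 and TMEM158. Those just outside it lay 998 bp away in GADD45A, and 973 bp away in a pair of lncRNA introns.

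To learn how far the core was more frequent in peaks than in the DNA next to them, all 3847 distal windows that lacked the 3 other motifs were compared with 11708 windows lacking them 1000 bp to either side. Results showed a RUNX core in 810 peak windows (21.1%, 19.8 to 22.4%) and in 2075 flank windows (17.7%, 17.0 to 18.4%). The ratio was 1.19 (1.10 to 1.28). The same letters in reversed order, TGGTGT or TGGCGT, have the same base composition and are no RUNX site. They stood in 17.4% of peak windows and 16.2% of flank windows, a ratio of 1.08 (0.995 to 1.17). The intervals of both ratios overlap. The reversed letters can share letters with a RUNX core, as in TGTGGTGT, so this control is not independent of the core. Reversed letters stood in 207 of the 810 peak windows with a core, and apart from a core in 134.

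The ratio differed by the base after the core when all cores were counted. Cores followed by C or T stood in 389 peak windows (10.1%) against 7.16% of flank windows, a ratio of 1.41 (1.26 to 1.58). Cores followed by A or G gave a ratio of 1.08 (0.975 to 1.19). The longer form with TT after the core stood in 79 peak windows, with a ratio of 1.57 (1.20 to 2.06). The reversed letters, read with C or T on the matching side, gave 1.34 (1.19 to 1.51), and with A or G 0.909 (0.809 to 1.02). The reversed letters thus had the same order as the RUNX core, and the interval for cores followed by C or T overlapped that of its reversed control. Both core spellings were alike, with 1.21 (1.11 to 1.31) for TGTGGT and 1.20 (0.990 to 1.45) for TGCGGT. Their reversed forms were not, with 1.17 (1.07 to 1.29) for TGGTGT and 0.855 (0.713 to 1.03) for TGGCGT.

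Peaks and flanks differed in base composition and in repeats, and both moved with these ratios. The windows of RUNX-alone peaks had a mean GC content of 52.9%, against 46.8% in their own flanks, which were not filtered on motifs. In the 2075 flank windows that met the same motif rule it was 48.6%, so the gap was smaller there. The mean over all flank windows used for the ratios is not given. Within classes of GC content 5 points wide, the ratio was 1.11 (1.03 to 1.19) for the RUNX core and 0.987 (0.909 to 1.07) for the reversed letters. It was 1.39 (1.23 to 1.56) for cores followed by C or T and 0.970 (0.876 to 1.07) for cores followed by A or G. The matching reversed letters had the same order within GC classes, with 1.29 (1.14 to 1.46) for C or T and 0.804 (0.715 to 0.905) for A or G, and the C or T intervals of core and control overlap. Cores in sequence with over 100 copies in hg38, counted over the 15 bases around the core, made up 16.5% (14.3 to 18.96%) of cores in peak windows and 31.5% (29.6 to 33.4%) in flank windows. Without them the ratio was 1.43 (1.31 to 1.55) for the RUNX core and 1.33 (1.22 to 1.46) for the reversed letters. Split by the base after the core, the ratios were then 1.52 (1.35 to 1.71) for cores followed by C or T and 1.41 (1.25 to 1.59) for cores followed by A or G, and these intervals overlap. Of the 810 peaks, 688 (84.9%) held a core with at most 100 copies.

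**Figure D1:**
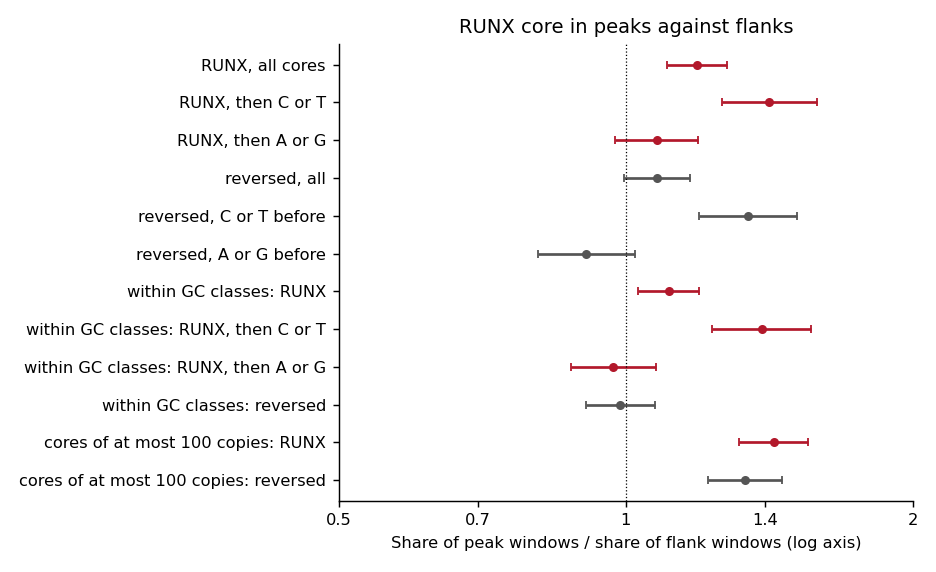
Ratio of the share of distal peak windows to the share of flank windows that hold the RUNX core (red) or its letters in reversed order (grey), among windows of 200 bp without GATA, AP-1 or ETS letters; points are ratios, bars are 95% intervals of counting error, and the axis is on a log scale. All RUNX cores lie at 1.19 and the reversed letters at 1.08, cores followed by C or T lie at 1.41, and cores of at most 100 copies lie at 1.43 against 1.33 for the reversed letters.

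Along the DNA, the core rose over the midpoint by a small amount. In the 2 bins of 100 bp at the midpoint the mean was 132 cores per 1000 peaks. In the 12 outer bins it was 99.2, with a range of 91.8 to 105.5. The reversed letters had a mean of 107 in the centre bins and 83.3 in the outer bins. A bin beside the centre reached 131 RUNX cores per 1000 peaks, about the height of the centre itself. The bins away from the centre were not filtered on the other motifs. Inside the 200 bp window, 502 of the 987 cores of RUNX-alone peaks (50.9%, 47.7 to 54.0%) lay within 50 bp of the midpoint. In 2075 flank windows that met the same motif rule, 50.2% (48.2 to 52.3%) of 2317 cores did so. The difference was 0.624 percentage points (-3.10 to 4.34), an interval that holds 0. The midpoint stands in for the summit, which the files used here do not give.

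**Figure D2:**
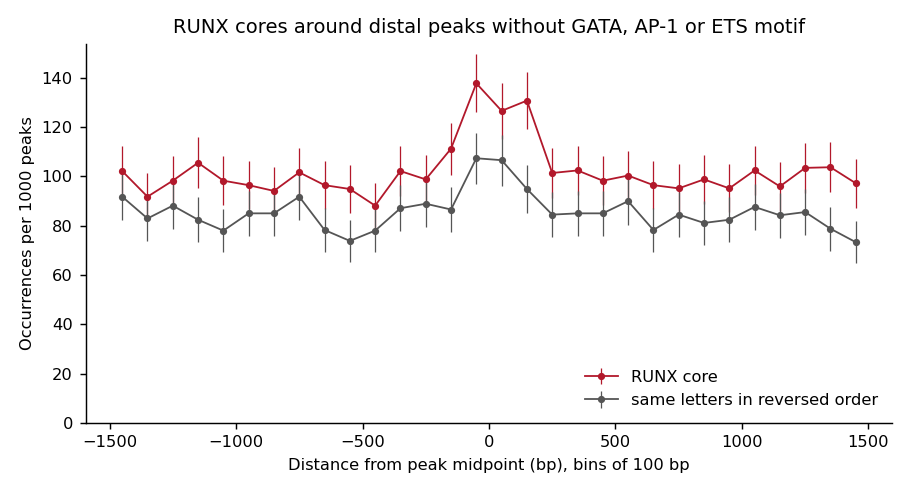
Occurrences per 1000 peaks of the RUNX core (red) and of its letters in reversed order (grey) in bins of 100 bp by distance from the midpoint, over 3847 distal peaks without GATA, AP-1 or ETS letters in the central 200 bp; bars are 95% intervals of counting error. The RUNX line has a mean of 132 in the centre bins and 99.2 in the outer bins, and the reversed letters have 107 and 83.3.

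Most RUNX-alone peaks held a single core. There were 701 with 1 core (86.5%), 91 with 2, and 109 with 2 or more (13.5%, 11.3 to 15.98%). In flank windows of the same motif rule 8.87% (7.72 to 10.2%) held 2 or more. TGTGGT stood alone in 669 peaks (82.6%), TGCGGT alone in 111 (13.7%), and both in 30. In flank windows 82.7% held TGTGGT alone. Of the 987 cores, 44.5% (41.4 to 47.6%) were followed by C or T, against 38.4% in flank windows, a difference of 6.07 points (2.401 to 9.75).

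The peaks with the most cores were tandem repeats of the letters in and around the core. They were in DIRC3-AS1 (14 cores), on chromosome 12 at chr12:56896078-56896375 (13 cores), on chromosome 7 at chr7:131587256-131587510 (9 cores, nearest protein-coding gene PODXL), in APBA2 (8 cores) and at chr2:46878208-46878546 (7 cores). The APBA2 peak was 872 bp long and the other 4 were 255 to 437 bp long. In 133 of the 810 peaks (16.4%, 14.03 to 19.1%) the central 31 bases had further copies in hg38. This was close to distal peaks with none of the 4 motifs (14.8%, 13.6 to 16.1%). It was 6.78% (5.31 to 8.61%) in distal peaks with both GATA and RUNX letters and 9.72% (8.78 to 10.7%) in those with GATA letters and no RUNX core. In 37 RUNX-alone peaks the central sequence had over 100 copies, with up to 27461. How the authors treated reads that align to several places was not stated, and the part of repeats in these peaks was not tested.

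Peak length was the one graded measure in the file. RUNX-alone peaks had a median length of 409.5 bp (389 to 429), quartiles of 302 and 606 bp, and a range of 229 to 3938 bp. Distal peaks with none of the 4 motifs had a median of 404 bp (396 to 412). Distal peaks with GATA letters were longer, at 486 bp both with a RUNX core (461 to 513) and without it (476 to 494). The RUNX core thus went with no difference in median length beyond the intervals, in peaks with GATA letters as in peaks without them. Among the 3847 windows, the ratio of the RUNX core to flanks was taken in 4 length classes. It was 1.10 (0.916 to 1.32) in the shortest (229 to 294 bp) and 1.22 (1.04 to 1.44) in the next. It was 1.38 (1.18 to 1.63) in the third (406 to 650 bp) and 0.999 (0.839 to 1.19) in the longest (651 to 4469 bp). In the longest class a flank 1000 bp from the midpoint can lie inside the same peak. The reversed letters in the third were at 0.942 (0.784 to 1.13) and this was the one class of the 4 in which the intervals of the core and its control did not overlap.

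**Figure D3:**
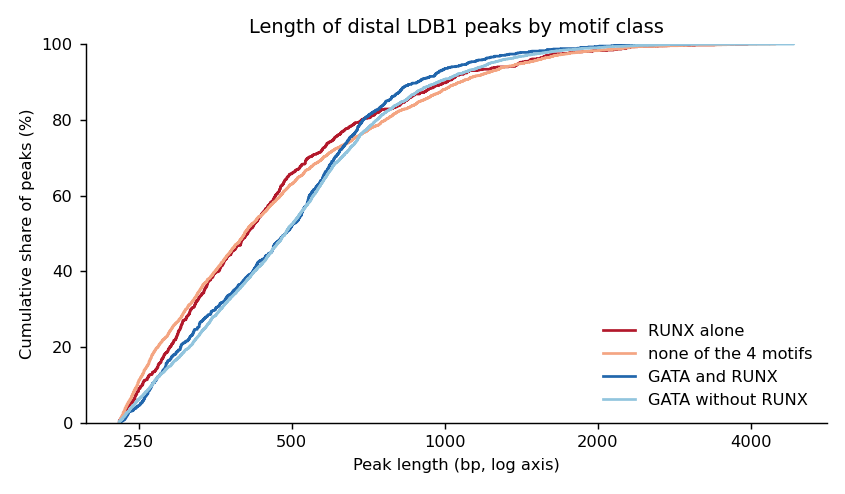
Cumulative share of peaks (percent) by peak length (bp, log axis) for the 810 RUNX-alone peaks and 3 other classes of distal peak, 1 line each. The RUNX-alone line has its median at 409.5 bp beside peaks with none of the 4 motifs at 404 bp, and both classes with GATA letters have theirs at 486 bp.

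The 10 longest RUNX-alone peaks each held 1 core in the window. The longest was 3938 bp in intron 1 of HSPG2, which encodes the basement membrane proteoglycan perlecan (chr1:21903731-21907668), and its central sequence had 156 copies. Next came an intergenic peak of 3397 bp at chr3:143083836-143087232 and one of 3100 bp in intron 2 of the lncRNA PITX1-AS1 (chr5:135133600-135136699). A peak of 2623 bp lay in intron 8 of DNAJB6, a co-chaperone gene (chr7:157401441-157404063), with its core 6 bp from the midpoint. Peaks of 2395 bp in TGM2, a transglutaminase, and of 2275 bp in intron 1 of SH3GL1, an endocytosis adaptor, stood with no other peak within 10 kb. A peak of 2317 bp lay 5468 bp from the TSS of PPP1R15A, a phosphatase subunit of the integrated stress response. One of 2270 bp lay 2217 bp from the TSS of UCP3, a mitochondrial carrier. The remaining pair measured 2738 bp at chr1:121092312-121095049 and 2310 bp at chr3:196192717-196195026.

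The other motifs around the core were then counted, since LDB1 reaches DNA through partners. The TAL1-type E-box, CAGATG or CAGCTG, stood in 243 of the 810 windows (30%, 26.9 to 33.2%). In the peaks' own flanks it stood in 22.3%, a ratio of 1.34 (1.17 to 1.54), and in flank windows with a RUNX core and none of the other 3 motifs in 20.5%, a ratio of 1.46 (1.28 to 1.67). Within classes of GC content the ratio to the peaks' own flanks was 1.14 (0.984 to 1.31). Distal peaks with none of the 4 motifs had the E-box in 31.3%, and the difference of RUNX-alone peaks from them was -1.28 points (-4.76 to 2.35). E-boxes that shared no letters with a core stood in 231 windows (28.5%), a ratio of 1.52 (1.32 to 1.75) to flank windows of the same motif rule. Of the 243 windows, 88 (36.2%) had an E-box within 20 bp of a core, against 35.2% in those flank windows, and the intervals (30.4 to 42.4% and 30.8 to 39.9%) overlap.

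The KLF letters (CCACACCC or CCCCACCC or CCACGCCC or CCCCGCCC) can share letters with a RUNX core, and this shaped their count. KLF letters stood in 17.2% of RUNX-alone windows, with a ratio of 1.83 (1.48 to 2.27) to the peaks' own flanks and of 1.02 (0.853 to 1.22) to flank windows that also held a core. Counting those apart from a core left 79 windows (9.75%) and a ratio of 1.36 (1.05 to 1.76). Peaks with none of the 4 motifs held KLF letters in 12.2%. The ratio of RUNX-alone peaks to them was 0.798 (0.634 to 1.005) for KLF letters apart from a core. The core letters of ETS sites, GGAA, stood in 80.6% of windows against 73.8% of those flank windows. Peaks with none of the 4 motifs held GGAA more often (83.6%), a difference of -3.02 points (-6.15 to -0.107). The 4 letters GATA stood in 34.0% of RUNX-alone windows and 32.4% of those flank windows. The letters of CEBP sites (TTGCNNAA), used by the main myeloid differentiation factors, stood in 6.54%, a ratio of 0.736 (0.543 to 0.997) to the peaks' own flanks and of 0.924 (0.682 to 1.25) to flank windows with a core. IRF letters stood in 16 windows, with ratios of 0.571 (0.330 to 0.990) and 0.773 (0.445 to 1.34), and NFY letters (CCAAT) in 161, with ratios of 0.815 (0.693 to 0.959) and 0.989 (0.841 to 1.16). For the letters of MYB (CAACGG or TAACGG), TEAD (GGAATGC or GGAATGT), STAT (TTCNNGGAA) and MEIS (TGACAG) the intervals of both ratios held 1. CTCF letters stood in 3 windows and CRE letters (TGACGTCA) in 0 of 810.

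**Figure D4:**
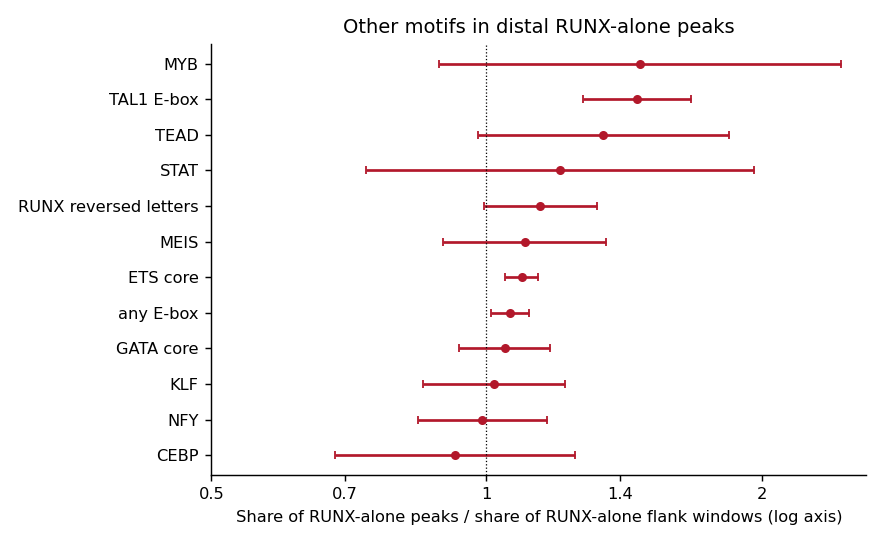
Share of the 810 RUNX-alone windows with each motif over the share of 2075 flank windows that hold a RUNX core and no GATA, AP-1 or ETS letters, for motifs in at least 20 windows; points are ratios on a log axis and bars are 95% intervals of counting error. The TAL1-type E-box lies at 1.46 (1.28 to 1.67), KLF at 1.02 and CEBP at 0.924. KLF letters can share letters with a core, and apart from a core their ratio was 1.36. These ratios were not taken within GC classes.

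RUNX-alone peaks lay in introns in 465 cases (57.4%, 54.0 to 60.8%), in intergenic DNA in 295 (36.4%) and in exons in 50 (6.17%). Peaks with none of the 4 motifs were in introns in 58.7%, and the difference was -1.27 points (-5.12 to 2.53). An intron of a gene's main transcript held 437 peaks, of which 417 are counted above in introns and 20 in exons. Of these 437, 150 (34.3%) were in intron 1, a share not given for other distal peaks. The median distance to a TSS was 7402 bp (6783 to 8375). It was 8172 bp (7755 to 8558) for peaks with none of the 4 motifs and 8722.5 bp (7833 to 9448) for those with GATA and RUNX letters. By class of distance, 165 peaks lay 1 to 3 kb from a TSS, 314 lay 3 to 10 kb away, 325 lay 10 to 100 kb away and 6 lay farther. Across chromosomes, RUNX-alone peaks were 5.81% (2.51 to 12.9%) of distal peaks on chromosome 21 and 11.7% (9.06 to 14.9%) on chromosome 7, the ends of the range, and these intervals overlap.

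RUNX-alone peaks had other LDB1 peaks close by more often than GATA peaks did. Another peak lay within 10 kb of 486 of 810 (60.0%, 56.6 to 63.3%), against 42.6% (39.4 to 45.8%) of peaks with GATA and RUNX letters and 44.1% (42.5 to 45.7%) of peaks with GATA letters and no RUNX core. The median gap to the next peak was 5275 bp (3840 to 6179), against 16198 bp (13248 to 20992) and 14551 bp (13062 to 15836). The next peak was under 1 kb away for 27.0%, 15.6% and 17.4%. Peaks with none of the 4 motifs were alike in this, with 58.8% and a median gap of 5028 bp (4282 to 5691). A peak with GATA letters lay within 10 kb of 312 RUNX-alone peaks (38.5%, 35.2 to 41.9%) and of 34.4% of peaks with none of the 4 motifs, a difference of 4.08 points (0.370 to 7.86). Peaks close together can share the same GATA neighbour and are not independent, so this interval may be too narrow.

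**Figure D5:**
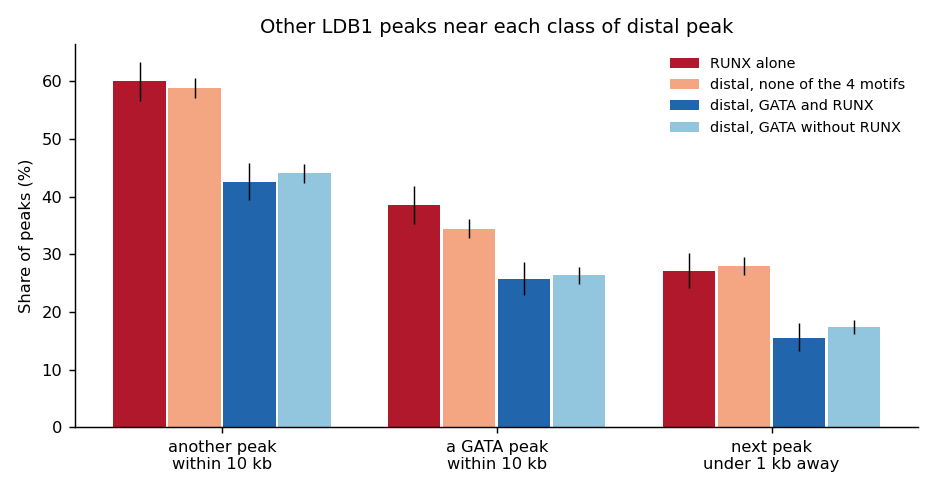
Share of peaks (percent) with another LDB1 peak within 10 kb, with a peak holding GATA letters within 10 kb, and with the next peak under 1 kb away, for 4 classes of distal peak; bars are shares and lines are 95% Wilson intervals of counting error. RUNX-alone peaks (60.0%) and peaks with none of the 4 motifs (58.8%) stand above both GATA classes (42.6% and 44.1%) for any peak within 10 kb.

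Of 20033 protein-coding genes, 446 had a RUNX-alone peak in the gene body or within 3 kb (2.23%), while 3898 (19.5%) had any LDB1 peak. At no protein-coding gene lay 358 of the 810 peaks. There were 404 genes with 1 RUNX-alone peak, 35 with 2 and 7 with 3. Genes with such a peak were long, with a median of 86.8 kb against 27.5 kb for all protein-coding genes. The median is not given for genes with other LDB1 peaks, and long genes have more room for any peak. The 7 genes with 3 were MAPKAP1 (a subunit of an mTOR kinase complex), ANXA4 (a calcium-dependent membrane-binding annexin), CHST11 (a chondroitin sulfotransferase), ZC3HAV1 (an antiviral zinc finger protein), MICAL2 (an actin oxidase), CLEC16A (an endosomal protein) and ENSG00000285218. In MAPKAP1 all 3 stood in intron 9 within a run of neighbours, with gaps of 309 to 634 bp to the next peak, and lengths of 397, 594 and 328 bp. In CHST11 all 3 stood in intron 1, with lengths of 299, 247 and 279 bp.

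Among 7 genes of RUNX factors and their partners, RUNX1 had a RUNX-alone peak, and it was 1 of the 5 peaks at the gene. The peak was 717 bp long in intron 2 (chr21:35026645-35027361), 22267 bp from the nearest TSS and 30140 bp from the next peak. The long introns of RUNX1 near its upstream promoter are known to hold blood enhancers, and whether the peak lies on one was not examined. Among 17 genes of the LDB1 complex and its partners, GATA1, the main erythroid GATA factor, had one of 405 bp in intron 3 (chrX:48792079-48792483), with 5 other peaks within 10 kb, of which 2 held GATA letters. Among 20 genes known as RUNX1 targets in blood, CSF1R, the receptor for macrophage colony-stimulating factor, had one of 342 bp in intron 10 (chr5:150065295-150065636). RUNX1 is known to act at an element in an early intron of CSF1R. The peak, in intron 10 of 21, did not lie in that early intron, and its distance from the element was not measured.

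Among 35 myeloid transcription factor genes, 2 had a RUNX-alone peak. IRF1, the interferon response factor, had one of 586 bp inside the span that GENCODE gives to the gene, 4570 bp from the nearest of its TSS (chr5:132500745-132501330). The same peak lay in intron 2 of another protein-coding gene, ENSG00000283782. ETV6, an ETS-family repressor that is fused to RUNX1 in childhood leukemia, had one of 447 bp in intron 2 (chr12:11798956-11799402), 2500 bp from the next peak. Among 20 red cell genes there were also 2, at HBZ, the embryonic zeta-globin gene (chr16:148936-149339, 404 bp, 3507 bp from its TSS), and in intron 1 of SLC4A1, the band 3 anion exchanger (chr17:44263323-44263658, 336 bp, with 2 cores). BAX had one among 16 genes of the BCL2 family (733 bp). None was at 16 neutrophil granule genes, 20 T and NK cell genes or 20 leukocyte adhesion and signalling genes, where 4, 4 and 6 genes had any LDB1 peak. Set against the 2.23% of all protein-coding genes with a RUNX-alone peak, lists this short can hold 0, 1 or 2 such genes, and the counts are no result about the lists.

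Of 19 candidate LDB1 targets named by the study, HSH2D and IRF2BP2 had a RUNX-alone peak, and in both it was the only LDB1 peak in the gene or within 3 kb. Of the 19, 13 had any LDB1 peak, and 2 of the 22 distal peaks at these genes were RUNX-alone peaks (9.09%). This was the same share as among all distal peaks (9.09%). The study chose the 19 in part by ChIP-Seq binding of LDB1, RUNX1 and other factors, so these counts are not independent of such binding. The peak at HSH2D, an adaptor of immune signalling, was 440 bp long (chr19:16141000-16141439) and lay inside the gene, 2466 bp from the nearest of its TSS. The peak at IRF2BP2, a transcriptional co-repressor, was 231 bp long, where the shortest in the file had 229 bp, in the untranslated part of exon 2 (chr1:234604764-234604994). In the study's list of genes shared by its ChIP-Seq and RNA-seq results, 91 of 1097 genes had a RUNX-alone peak (8.30%, 6.81 to 10.1%) and 65.4% had any LDB1 peak. That list was drawn in part from LDB1 binding and its genes had a median length of 46.5 kb, so its share is not independent of the peaks. Of the 1205 distal peaks at those genes, 103 (8.55%, 7.10 to 10.3%) were RUNX-alone peaks, against 9.09% (8.52 to 9.71%) of all distal peaks.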

How the data were processed

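Per the authors' methods and the submitters' processing notes, reads were aligned to hg38 with Bowtie2 2.4.4 and peaks were called by MACS3 3.0 from fragments of read pairs. The authors deposited 1 peak list for the LDB1 library, with chromosome, start, end and length in bp, and no height, q-value or summit. Use of the IgG library as a control, and the handling of duplicates and of reads with several alignments, were not stated.

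Starts were read as counted from 1. TSS, exons and genes came from GENCODE 44 and sequence from hg38. Motifs were consensus letters on both strands in 200 bp around the midpoint, and flanks were windows of the same size 1000 bp away. Of the flanks of all distal peaks 10.6% overlapped a peak, and of the flanks of RUNX-alone peaks 14.4% did. Shares have Wilson 95% intervals, ratios log-scale intervals, differences Newcombe intervals and medians order-statistic intervals. Ratios within GC classes are Mantel-Haenszel ratios. Copies were exact matches on both strands. Letters of CTCF sites and of the other motif names were consensus strings. The software was matplotlib 3.10.9, numpy 2.4.6, SciPy 1.17.1, Python 3.11.15 and pandas 2.3.3. The counting was tested on simulated data, where 400 of 400 cores written into 2000 windows were found at their place and strand.

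The peaks, motifs and gene lists were chosen with earlier results of these data known. The 10 longest peaks, the 5 with most cores, the 3 on either side of the distance limit, those at listed regulators and candidates, and the genes with most peaks were named. The sequences of 2 of the 4 longest peaks with a unique centre are not reported here. HBZ, SLC4A1 and BAX, the DIRC3-AS1 sequence and the lengths by gene were added after their values were seen. Alternatives were another TSS distance or set, motif window, core, flank, merging of peaks, repeats, peak length and gene window. GC classes, cores of at most 100 copies and flanks of the same motif rule were added after seeing the data.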

Additional observations from a re-analysis of the deposited data

How the results depend on the processing

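Of 51 values under other settings, 43 stayed within the interval, or for counts within 1.5 times, of the value given. The number of peaks ranged from 606 with motifs sought in the whole peak to 923 with the TSS of protein-coding transcripts, and fell to 389 for cores followed by C or T. The RUNX ratio was 1.41 for those cores and, chosen after seeing the data, 1.43 for cores of at most 100 copies. In windows of 100 bp the E-box ratio was 1.80, and within GC classes, added after seeing the data, 1.14. Among peaks longer than the median of all peaks 54.2% of cores lay within 50 bp of the midpoint and 206 genes had a RUNX-alone peak. With 51 central bases in place of 31, 7.41% of peaks had a repeated centre. Some of these moves follow from the settings, as cores followed by C or T and longer peaks are fewer, and a match of 51 bases is stricter. The limit of 100 copies left out 16.5% of cores in peak windows and 31.5% in flank windows, which by itself raises the RUNX ratio. The causes of the other moves were not tested.

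No paired analysis was possible because the series has 1 library per group and no test was made. Counting error within 1 library, the missing peak heights and summits, and the unknown depth limit all values, and antibody and treatment cannot be told apart.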
